A study of Mus musculus with 18 samples.

Results

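The genes described here are 10 regulators of developmental timing, Lin28a, Lin28b, Hmga2, Nr6a1, Dnmt3b, Trim71, Sall4, Igf2bp1, Igf2bp3 and Mycn. They were taken as every probe set that the array annotation gives to one of these symbols alone, which came to 31 probe sets of 45037 and to 10 of the 18193 genes measured. They were selected on their measured levels in these same embryos, as a reading of embryo stage, above all on the difference between the genotypes Neo2/Neo2 and Neo2/Neo, so their levels and contrasts are given below as a description. A gene with several probe sets is given by its brightest one, that of the highest mean signal, unless another is named. Values are log2 signals, so a difference of 1 is a doubling, and the level of one probe set was not set against that of another.

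RNA came from 18 whole mouse embryos at embryonic day 9.5, with 1 embryo per Affymetrix mouse genome array. The series varies the dosage of Tbx1, a T-box transcription factor gene of the pharyngeal apparatus, on a mixed 129SvEv and C57Bl/6 background. WT embryos (Tbx1+/+) carried 2 wild-type alleles. Those labelled Neo2/+, Neo/+ and +/- carried 1. Those without a wild-type allele, 0 copies, were -/-, Neo/Neo, Neo2/-, Neo2/Neo2 and Neo2/Neo. Neo2 and Neo are labelled as hypomorphic alleles, and the minus sign is the null allele. The Tbx1 signal was 6.62 ± 0.004 (SD, n = 2) in the embryos labelled Neo2/Neo2, 6.54 ± 0.07 in Neo2/+ and 6.59 ± 0.06 in WT, so the Tbx1 transcript did not set the Neo2/Neo2 label apart from WT. Genotype names and every direction given for Neo2/Neo2 below rest on the labels. Each of the 9 genotypes had 2 embryos, described as biological replicates. Stage was set by the day of the vaginal plug, no treatment was given, and no somite count was used here.

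The median log2 signal of an array lay between 5.73 and 5.94. Replicate 1 of +/- and replicate 1 of -/- stood apart, with median correlations of 0.975 and 0.985 with the other arrays against 0.991 to 0.995 for the other 16. Results that rest on these embryos are given with and without them. The sex of the embryos, read from Xist and Y-linked genes, was female for both WT and both -/- embryos, male for both of Neo/Neo and both of Neo2/Neo2, and mixed in the other genotypes. In whole-embryo RNA, fewer cells that express a gene and less of its RNA per cell cannot be told apart.

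Lin28a and Lin28b are RNA-binding proteins of early embryonic cells, and let-7 is the microRNA family that they hold back. Lin28 proteins bind the loop of let-7 precursors, where their zinc knuckles contact the letters GGAG, and lead to the decay of the precursor. As let-7 rises in older tissue it lowers Lin28 itself, Hmga2, Trim71, Igf2bp1, Igf2bp3 and Mycn, so the circuit works as a switch from an early to a late state. In the mouse embryo Lin28a and Nr6a1 are known to be high at early trunk stages and to fade around midgestation.

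The sequences on which this circuit rests were read from the RefSeq microRNA records of mouse assembly GRCm38.p6. They are shown because every let-7 family member carries the same seed, bases 2 to 8 of the mature strand, which pairs with target mRNAs. All 9 mature let-7 family names in the table, let-7a to let-7g, let-7i and miR-98, shared the seed GAGGUAG, in capitals in the following strands, which differ from each other downstream of it. miR-125b, of the lin-4 family that also targets Lin28, has another seed.
let-7a-5p: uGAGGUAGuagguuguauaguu
let-7d-5p: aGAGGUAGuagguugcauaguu
let-7g-5p: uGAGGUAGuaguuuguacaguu
miR-98-5p: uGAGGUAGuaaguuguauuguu
miR-125b-5p: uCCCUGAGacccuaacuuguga

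The let-7a strand shown is encoded at chr13:48538239-48538260 on the minus strand, let-7d at chr13:48536078-48536099 on the minus strand and let-7g at chr9:106178846-106178867 on the plus strand. The letters GGAG were searched, on the transcribed strand, in the stretch between the 5p and the 3p arm of each hairpin. They were present in 9 of 12 let-7 family hairpins (75%) and in 44 of 633 other mouse hairpins with both arms annotated (6.95%). The loops were 23 to 36 bases long in the let-7 family, and loop length was not matched between these sets. Mir98, Mirlet7b and Mirlet7c-2 lacked the letters. A loop with GGAG, in capitals, and one without it are set side by side here.
let-7a-1 loop: uuagggucacacccaccacugGGAGauaa
let-7b loop: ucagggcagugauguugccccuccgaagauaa

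The first loop lies at chr13:48538210-48538238 on the minus strand and the second at chr15:85707347-85707378 on the plus strand. These arrays measured messenger RNA and give no value for mature let-7 or miR-125b, so the let-7 side of the circuit was read only through its processing factors and target transcripts.

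Lin28a (brightest probe set 1437752_at, chromosome 4) ranged from 9.29 to 11.73, a 5.44-fold span, which among the 10 genes was exceeded by that of Nr6a1 at 5.68-fold (both over the 16 embryos that did not stand apart). The WT embryos had 10.02 and 10.30, the Neo2/+ embryos 10.59 and 10.28, the Neo/+ embryos 10.74 and 11.10, and the +/- embryos 10.95 and 11.41. The Neo2/Neo2 embryos had 11.72 and 11.73, the Neo2/Neo embryos 9.29 and 9.5, the Neo2/- embryos 10.53 and 10.88, the Neo/Neo embryos 9.66 and 10.68, and the -/- embryos 9.51 and 11.46. Both Neo2/Neo2 embryos were above every other embryo and both Neo2/Neo embryos below every other. Between these ends the order of genotype means ran +/-, Neo/+, Neo2/-, -/-, Neo2/+, Neo/Neo and WT, and the replicate ranges of each of these neighbours overlapped.

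Nr6a1 (1428826_at, chromosome 2), a nuclear receptor that shuts off pluripotency genes and acts in trunk formation, ran along with Lin28a. Signals were 8.02 and 8.01 in WT, 8.41 and 8.26 in Neo2/+, 8.20 and 8.88 in Neo/+, and 8.74 and 8.86 in +/-. They were 9.13 and 9.52 in Neo2/Neo2, 7.21 and 7.02 in Neo2/Neo, 8.04 and 8.18 in Neo2/-, 7.80 and 8.46 in Neo/Neo, and 7.56 and 9.19 in -/-. Both Neo2/Neo embryos were again below all others, while replicate 2 of -/- at 9.19 lay between the Neo2/Neo2 embryos.

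Trim71 (1453599_at, chromosome 9), the mouse lin-41, is a ubiquitin ligase and RNA-binding repressor that keeps progenitor cells undifferentiated. Its signals were 8.66 and 8.59 in WT, 8.99 and 8.98 in Neo2/+, 9.02 and 9.00 in Neo/+, and 9.02 and 9.22 in +/-. In embryos with 0 wild-type alleles they were 9.47 and 9.63 in Neo2/Neo2, 8.18 and 8.16 in Neo2/Neo, 8.76 and 8.96 in Neo2/-, 8.61 and 8.95 in Neo/Neo, and 8.38 and 9.52 in -/-. Of the 8 neighbouring pairs in the order of its genotype means, 4 did not overlap. Some of these gaps were small, as between the lower +/- embryo at 9.018 and the higher Neo/+ embryo at 9.016. The share of all genes with such a count was not taken, so nothing is read from it.

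Sall4 (1424152_at, chromosome 2), a zinc finger factor of pluripotent cells, limb and heart, spanned less. It had 9.83 and 9.87 in WT, 10.07 and 9.98 in Neo2/+, 10.02 and 10.11 in Neo/+, and 10.05 and 10.43 in +/-. It had 10.44 and 10.66 in Neo2/Neo2, 9.41 and 9.30 in Neo2/Neo, 9.94 and 10.07 in Neo2/-, 9.62 and 10.04 in Neo/Neo, and 9.37 and 10.52 in -/-. The lowest values were those of Neo2/Neo and of replicate 1 of -/-, and the highest those of Neo2/Neo2 and of replicate 2 of -/-.

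Mycn (1417155_at, chromosome 12), the Myc family gene of embryonic progenitors, had its highest mean in Neo2/Neo2 and its lowest in Neo2/Neo as well, over a smaller range. It lay between 10.31 and 10.62 in the 14 embryos other than the Neo2/Neo2 and -/- ones, at 10.75 and 10.85 in Neo2/Neo2, and at 9.88 and 10.82 in -/-. Dnmt3b (1449052_a_at, chromosome 2), the de novo DNA methyltransferase of the early embryo, was at 9.58 and 9.66 in Neo2/Neo2, above all other embryos, and at 9.03 and 8.93 in Neo2/Neo. Its lowest signals were 8.41 in replicate 1 of +/- and 8.63 in replicate 1 of -/-, the embryos that stood apart. Without them its range was 8.93 to 9.66.

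The remaining genes hardly moved at their brightest probe sets. Igf2bp3 (1422610_s_at, chromosome 6), an mRNA-binding protein of fetal tissue, ranged from 10.92 to 11.13. Its relative Igf2bp1 (1418761_at, chromosome 11) was at 9.93 in replicate 1 of -/- and between 10.86 and 11.32 in all other embryos. Hmga2 (1422851_at, chromosome 10), a chromatin protein of growing tissue and a leading let-7 target, ranged from 12.18 to 12.48. Lin28b (1430803_at, chromosome 10) ranged from 3.22 to 3.87, below the median of every array, and these values carry no detection call.

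**Figure D1:**
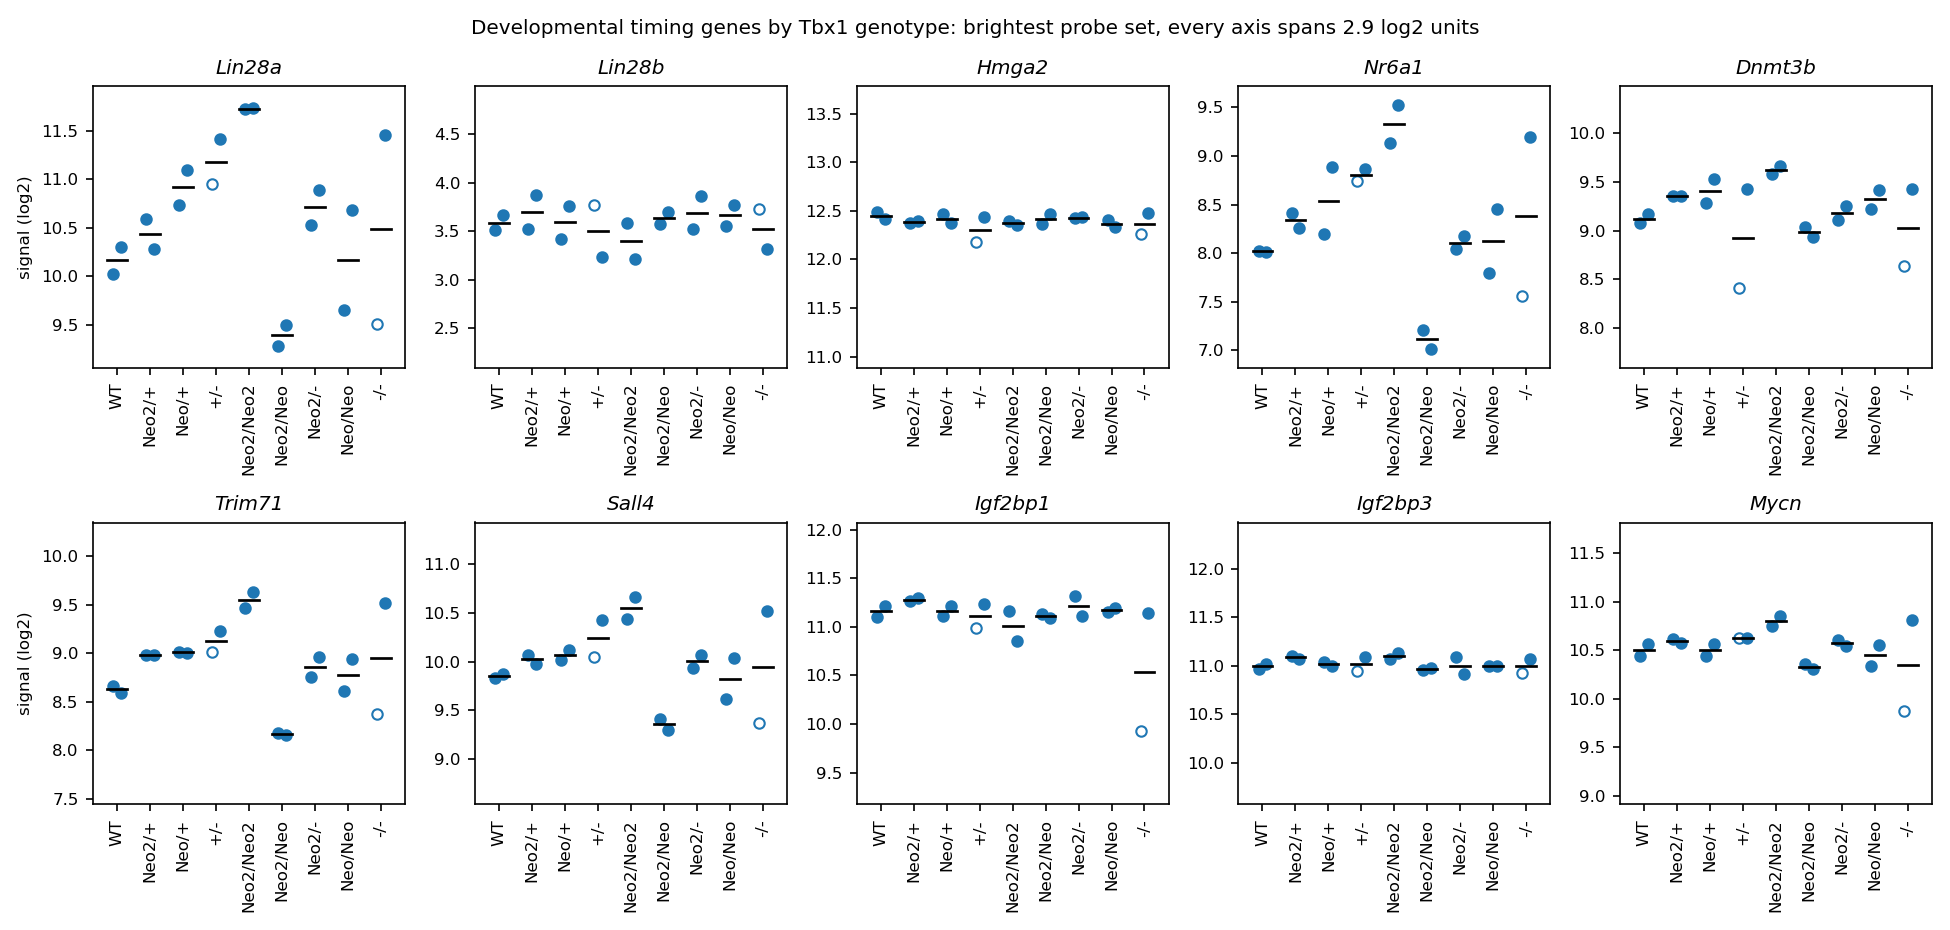
Log2 signal of the brightest probe set of each of the 10 genes (vertical axis, spanning the same number of log2 units in each panel) in the 9 genotypes (horizontal axis). Points are single embryos, open points the arrays that stood apart, and black lines the mean of 2 embryos. Lin28a, Nr6a1, Trim71 and Sall4 have their highest mean in Neo2/Neo2 and their lowest in Neo2/Neo, while Hmga2 and Igf2bp3 are flat at these probe sets.

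Averaged as the mean deviation of the 10 genes from their own means, Neo2/Neo2 was highest at 0.39 ± 0.02 (SD, n = 2) and Neo2/Neo lowest at -0.41 ± 0.003. The embryos of +/- averaged 0.12 ± 0.16, of Neo/+ 0.10 ± 0.13, of Neo2/+ 0.06 ± 0.01 and of Neo2/- 0.02 ± 0.06. Those of Neo/Neo averaged -0.07 ± 0.22, of -/- -0.10 ± 0.62 and of WT -0.11 ± 0.05. WT thus ranked eighth of 9 rather than at an end. Neo2/Neo2 had the highest mean for 7 of the 10 genes and Neo2/Neo the lowest for 6. Some of these ranks rest on small gaps, as for Igf2bp3 with 11.10 in Neo2/Neo2 and 11.09 in Neo2/+. The share of all genes with such ranks was not counted, so nothing is read from these counts. Both Neo2/Neo2 embryos were above every other embryo for 2 of the 10 genes, Lin28a and Dnmt3b, as they were for 2.77% of all genes (2 and 4.19% over 16 arrays). Both Neo2/Neo embryos were below every other for 3, Lin28a, Nr6a1 and Trim71, beside 2.38% of all genes, and over 16 arrays for 5, with Sall4 and Dnmt3b added, beside 4.5%.

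Embryos of one genotype were not alike in every case. In -/- the deviation was -0.54 in replicate 1 and 0.34 in replicate 2, nearly the whole range of the series, and 9 of 10 genes were higher in replicate 2. The largest gap was that of Lin28a, 1.95, and the median gap 1.04 in size. Replicate 2 was also higher for 9 of 10 genes in +/- and in Neo/Neo, where Lin28a differed by 1.03. In +/- and -/- the lower embryo is the array that stood apart, and its part in the gap was not tested. Neither array of Neo/Neo stood apart.

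Set against each other across embryos, 4 genes ran together. Lin28a, Nr6a1, Trim71 and Sall4 had pairwise Pearson correlations of 0.95 to 0.98 over the 18 arrays, and 0.95 to 0.98 without the arrays that stood apart. Mycn correlated with these 4 at 0.79 to 0.87 (0.89 to 0.93 over 16 arrays). Dnmt3b did so at 0.57 to 0.65, and at 0.87 to 0.94 over 16 arrays. Igf2bp3 came to 0.56 to 0.66, Hmga2 to -0.10 to 0.10 and Lin28b to -0.49 to -0.39. Igf2bp1 came to 0.18 to 0.32 over 18 arrays and to -0.20 to -0.17 over 16. These are descriptions over arrays that share one normalization.

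In the contrast of the extremes, the embryos labelled Neo2/Neo2 against those labelled Neo2/Neo, which both lack a wild-type allele and differ in 1 allele, 4 of the 10 genes were called higher. A probe set was called at a limma Benjamini-Hochberg adjusted p under 0.05 over all 45037. Lin28a differed by 2.33 (SE 0.47, 5.03-fold, adjusted p = 0.027), Nr6a1 by 2.21 (SE 0.40, 4.64-fold, adjusted p = 0.0196), Trim71 by 1.38 (SE 0.26, 2.60-fold, adjusted p = 0.0216) and Sall4 by 1.2 (SE 0.27, 2.29-fold, adjusted p = 0.0405). Dnmt3b, at 0.64 (adjusted p = 0.25), and Mycn, at 0.46 (adjusted p = 0.273), were not called. Of all 18193 genes 3.23% were called, and 1.47% were called higher. This contrast entered the choice of the genes, so nothing is read from the difference between these shares. The median difference of the 10 genes was 0.55, against 0.06 for all genes.

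The calls leaned on the 4 embryos of the contrast. Without any single one of them 0 of the 10 genes were called. With embryo sex as a term 1 was, Nr6a1, while Lin28a (2.29, adjusted p = 0.0611), Trim71 (1.34, adjusted p = 0.0518) and Sall4 (1.18, adjusted p = 0.0844) kept differences close to those above without a call. Without the arrays that stood apart the same differences met a smaller spread, and 6 were called, Dnmt3b (adjusted p = 0.00488) and Mycn (adjusted p = 0.0111) with the 4 above, beside 12.2% of all genes. Sall4 kept its call in 4 of the 18 fits that each left out 1 embryo. Both Neo2/Neo2 embryos were male and Neo2/Neo had 1 of each sex.

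Against WT, the Neo2/Neo2 embryos differed by 1.56 (SE 0.47) for Lin28a, 1.31 (SE 0.40) for Nr6a1, 0.92 (SE 0.26) for Trim71 and 0.70 (SE 0.27) for Sall4. With the mean over its probe sets Lin28a differed by 0.53, and Neo2/Neo from WT by -1.40, since the second Lin28a probe set has another pattern. None of the 10 genes was called (adjusted p 0.227 to 0.906), and 0% of all genes were called. At an unadjusted p under 0.05 there were 4, beside 10.9% of all genes. Without the arrays that stood apart, 5 were called, Lin28a (adjusted p = 0.029), Nr6a1 (0.0312), Trim71 (0.0153), Sall4 (0.0324) and Dnmt3b (0.0418), beside 2.08% of all genes. The Neo2/Neo embryos differed from WT by -0.77 for Lin28a, -0.90 for Nr6a1, -0.46 for Trim71 and -0.49 for Sall4. There was no call over 18 arrays (0% of all genes called) or over 16 (0.0495% of all genes called). Over 18 arrays 1 gene, Nr6a1, had an unadjusted p under 0.05, beside 7.1% of all genes. These contrasts share the WT embryos, and each is given on its own values.

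**Figure D2:**
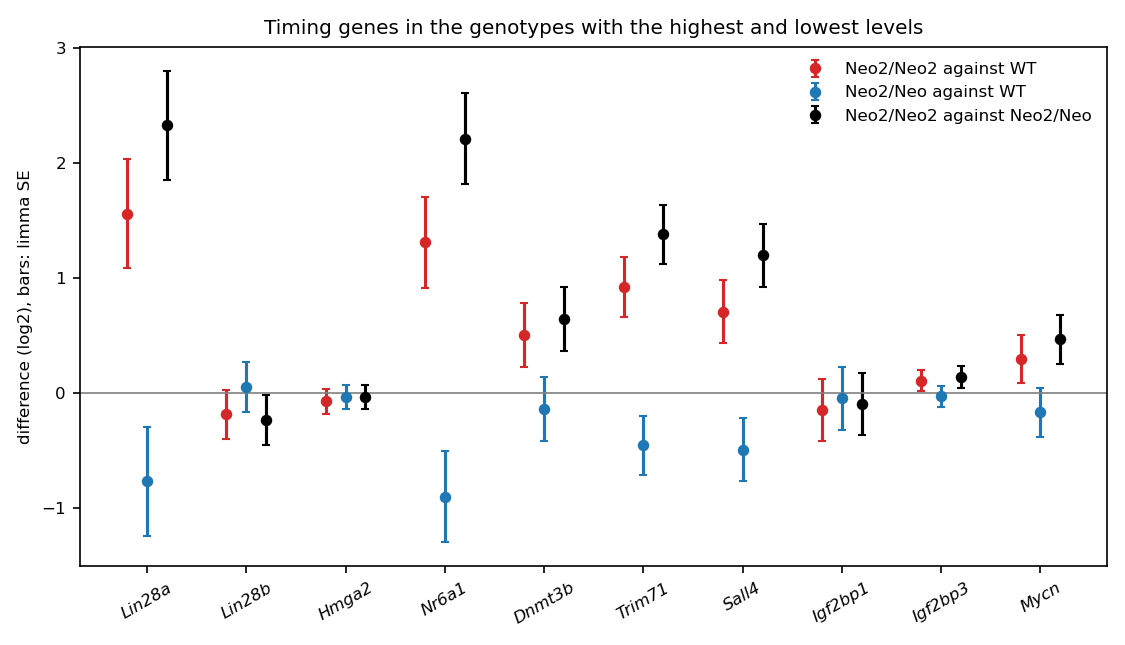
Difference in log2 signal (vertical axis, bars are limma standard errors) for each of the 10 genes (horizontal axis), brightest probe set, in Neo2/Neo2 against WT (red), Neo2/Neo against WT (blue) and Neo2/Neo2 against Neo2/Neo (black). Lin28a and Nr6a1 have the largest differences, 2.33 and 2.21, between Neo2/Neo2 and Neo2/Neo, and Hmga2 and Igf2bp1 lie near 0.

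In the other 6 genotypes limma called 0 of the 10 genes against WT, beside 0% of all genes in Neo2/+, +/- and Neo2/-, 0.022% in Neo/+, 0.0715% in Neo/Neo and 0.022% in -/-. At an unadjusted p under 0.05 there was 1 gene in -/-, Igf2bp1 at -0.62, beside 15.5% of all genes. In the others there were 0, beside 5.54% to 12.4% of all genes. Over 16 arrays, which leave 1 embryo of -/-, Igf2bp1 differed by -0.016. Without the arrays that stood apart the count became 1 in -/-, where Trim71 in the remaining embryo was 0.89 above WT (SE 0.14, adjusted p = 0.0445, 0.137% of all genes called). That value rests on 1 embryo, assumed to vary like the other genotypes. The F-test of any difference between genotypes called 0 of the 10 at 18 arrays, beside 0.247% of all genes. Its unadjusted p was under 0.05 for 4, Nr6a1, Trim71, Lin28a and Sall4, beside 13.1% of all genes. Over 16 arrays it called these 4, beside 2.74% of all genes.

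The timing genes were also set against Tbx1 dosage. Embryos with 0 wild-type alleles differed from those with 1 by -0.35 for Lin28a (SE 0.36) and by -0.35 for Nr6a1 (SE 0.32), and the median over the 10 genes was -0.12. Over 16 arrays Lin28a differed by -0.22 and Nr6a1 by -0.24. Limma called 0 of the 10 genes in this comparison, and 0% of all genes were called. An unadjusted p under 0.05 was found for 0 of the 10, beside 3.49% of all genes. On the Tbx1 signal itself 9 of 10 slopes were positive, with a median of 0.17 per log2 unit of Tbx1, and 0 were called (0% of all genes called). An unadjusted p under 0.05 was found for 1, Mycn with a slope of 0.17 (SE 0.08), beside 9.5% of all genes. Over 16 arrays 7 of 10 slopes were positive, with a median of 0.09, the slope of Mycn was 0.077 (SE 0.068), and 0 had an unadjusted p under 0.05. The extremes of the timing genes, Neo2/Neo2 and Neo2/Neo, had Tbx1 signals of 6.62 and 5.66. The lowest Tbx1 signals were 5.12 in Neo/Neo, with timing gene averages of -0.22 and 0.08, and 5.07 in -/-, with averages of -0.54 and 0.34 in its embryos.

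Several genes are read by more than one probe set, and these did not always tell the same story. For Nr6a1, 3 of the other 4 probe sets followed the brightest over 16 arrays (r 0.86 to 0.98, and 0.83 to 0.92 over 18). Of these, 1428825_at differed by 2.41 between Neo2/Neo2 and Neo2/Neo (adjusted p = 0.0151). The second Trim71 probe set followed over 16 arrays as well (r 0.96, and 0.78 over 18). So did those of Sall4 (0.79, and 0.74 over 18) and Dnmt3b (0.93, and 0.73 over 18). The second Sall4 probe set, 1424153_s_at, had its highest genotype mean in +/- and its lowest in Neo/Neo, unlike the brightest. In all, 8 of the 31 probe sets were called higher in Neo2/Neo2 against Neo2/Neo and 0 lower, beside 2.65% of all probe sets. Among them was 1450687_at of Igf2bp3, with a difference of 0.65 (adjusted p = 0.0467), although the brightest Igf2bp3 probe set differed by 0.14. The Igf2bp3 probe sets 1433732_x_at, 1422611_s_at and 1433731_at also had their highest genotype mean in Neo2/Neo2 and their lowest in Neo2/Neo. In contrast, 1453957_a_at had its highest in Neo2/Neo, with r = -0.51 with the brightest over 16 arrays (-0.09 over 18). The other 3 Igf2bp1 probe sets did not follow its brightest over 16 arrays (r -0.35 to -0.03, and -0.22 to 0.79 over 18). Each had its highest genotype mean in Neo2/Neo2, unlike the brightest. Of these, 1449210_at read 8.97 and 9.26 in Neo2/Neo2 and 8.55 and 8.51 in Neo2/Neo.

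The second Lin28a probe set, 1421749_at, did not follow the first, with r = 0.08 over 18 arrays and 0.12 over 16. It read 8.94 and 8.35 in WT, 7.53 and 8.78 in Neo2/Neo2 and 7.38 and 5.86 in Neo2/Neo. Its highest genotype mean was in Neo2/+, at 8.43 and 9.26, not in Neo2/Neo2. Both probe sets had their lowest genotype mean in Neo2/Neo. Which transcript or exon each reads was not used here.

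Hmga2 was flat at its brightest probe set and not at 2 others. Probe set 1450781_at read 11.83 and 11.87 in Neo2/Neo2, 11.80 in replicate 2 of -/-, 11.71 in replicate 2 of Neo2/-, 11.70 in replicate 2 of +/- and 11.69 in replicate 1 of Neo/+. It lay between 10.96 and 11.37 in the other embryos apart from replicate 1 of +/-, at 8.40. Probe set 1446196_at ran the other way. In those same embryos it read 5.20, 5.32, 5.38, 5.75, 5.62 and 5.18, against 5.65 in replicate 1 of -/- and 6.21 to 6.65 elsewhere. Their correlation with each other was -0.56 over 18 arrays and -0.87 over 16. For Neo2/Neo2 against Neo2/Neo, 1446196_at differed by -1.26 (adjusted p = 0.0666) and 1450781_at by 0.67 (adjusted p = 0.69), so neither was called over 18 arrays. Over 16 arrays both were, with adjusted p = 0.0189 and 0.0454.

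**Figure D3:**
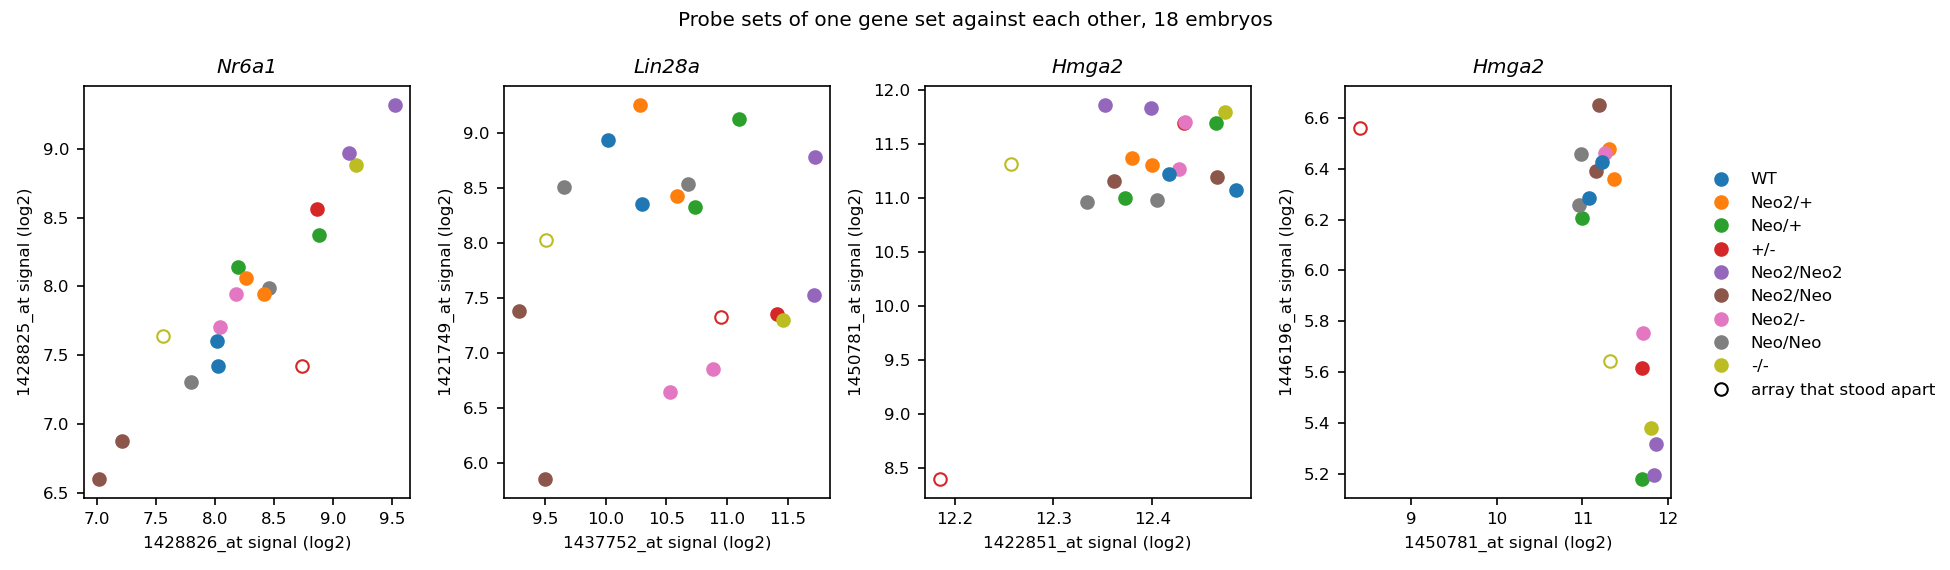
Log2 signals of pairs of probe sets of one gene (both axes) in 18 embryos, coloured by genotype, open points for the arrays that stood apart. The Nr6a1 pair rises along a line (r = 0.98 over 16 arrays), the Lin28a pair has no common trend (r = 0.12), and the last Hmga2 pair, 1450781_at with 1446196_at, runs in opposite directions (r = -0.87).

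The circuit around Lin28 was read from fixed lists of genes. Of the 8 let-7 processing genes, among them Drosha, which cuts the primary transcript, Xpo5, which exports the precursor, Ago2 and the uridylase Tut4, 0 were called in Neo2/Neo2 against Neo2/Neo, and their median difference was 0.02. Xpo5 differed by 0.38 (adjusted p = 0.235), Drosha by 0.15 (adjusted p = 0.65) and Tut4 by -0.31 (adjusted p = 0.871). Tut4 read 7.12 in replicate 1 of +/-, an array that stood apart, beside a mean of 10.25 over 18 arrays. Ago2 read 6.55 there, beside a mean of 10.31. Such values widen the spread behind the adjusted p, so Tut4 is not shown to be unchanged. Over 16 arrays r with the timing gene average was -0.89 for Tut4 (-0.12 over 18), 0.75 for Xpo5 and 0.51 for Drosha. Dis3l2, the exonuclease of uridylated let-7 precursors, averaged 6.64 in Neo2/Neo2 and 7.10 in Neo2/Neo. Of 10 measured let-7 targets outside the 10 genes, 1 was called, Arid3b, a DNA-binding protein, at 0.94 (SE 0.18, adjusted p = 0.0228). Its signals were 8.63 and 8.82 in Neo2/Neo2 and 7.76 and 7.82 in Neo2/Neo, with WT between them at 8.16 and 7.95. The call of Arid3b was lost with sex as a term and with the mean of its probe sets, where it differed by 0.37. Plagl2 differed by 0.53 (adjusted p = 0.295), Ccnd1 by -0.23 (adjusted p = 0.739) and Igf1r by 0.00 (adjusted p = 0.993), and the list's median was 0.30.

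Of 15 pluripotency and epiblast genes, 1 was called, Tdgf1, a Nodal co-receptor, at 0.56 (adjusted p = 0.0452), from signals of 4.29 and 3.88 in Neo2/Neo2 and 3.52 and 3.54 in Neo2/Neo. All of its signals were below the array medians. Pou5f1 lay between 4.07 and 5.0, Nanog between 2.94 and 3.58 and Zfp42 between 2.89 and 3.42 in all embryos, below every array's median. Of the 6 DNA methylation genes and 10 Myc network genes 0 were called, with medians of 0.01 and -0.07. The antagonists Mxi1 and Mxd4 differed by -0.46 (adjusted p = 0.102) and -0.43 (adjusted p = 0.107). Of 7 measured relatives of the timing genes, 1 was called, the nuclear receptor Nr2f1, lower by 0.56 in size (-0.56, adjusted p = 0.0216). The F-test called 0 genes in each of these lists.

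Lists of genes that mark the age of an embryo were read beside the timing genes. The averages of the neuronal and tailbud lists had Neo2/Neo2 and Neo2/Neo at their ends, while that of the late Hox list was 0.07 in Neo2/Neo2 and 0.04 in Neo2/Neo, between -0.14 in Neo/Neo and 0.10 in -/-. All 12 neuronal differentiation genes were lower in Neo2/Neo2 than in Neo2/Neo, and 8 of them were called, with a median difference of -1.94. Elavl3 and Elavl4, RNA-binding proteins of young neurons, differed by -1.98 (SE 0.29, adjusted p = 0.0129) and -1.52 (SE 0.26, adjusted p = 0.0172). The neurofilament genes Nefm and Ina differed by -2.54 (SE 0.44, adjusted p = 0.0178) and -2.15 (SE 0.37, adjusted p = 0.018). Nefm read 10.08 and 10.16 in WT, 8.29 and 8.39 in Neo2/Neo2 and 10.89 and 10.88 in Neo2/Neo, so these 3 genotypes did not overlap.

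All 9 measured trunk to tail and tailbud genes were higher in Neo2/Neo2, and 3 were called, with a median of 0.90. These were the posterior homeobox genes Cdx2 at 1.64 (SE 0.32, adjusted p = 0.023), Cdx4 at 2.46 (SE 0.47, adjusted p = 0.0225) and Nkx1-2 at 2.22 (SE 0.54, adjusted p = 0.0497). Cdx4 read 5.62 and 6.07 in Neo2/Neo2, 3.50 and 3.25 in Neo2/Neo, and 3.77 and 5.73 in the -/- embryos, the last of which stood with Neo2/Neo2. The Neo2/Neo signals of Cdx4 and of Nkx1-2 (4.48 and 4.73) lay below every array median and carry no detection call, so the size of these differences is uncertain. With a filter at a mean signal of 6 the list kept 1 call, and with the mean of its probe sets Nkx1-2 differed by 1.11 (adjusted p = 0.0471). Of 11 measured late Hox genes, which are switched on as the tail forms, 0 were called and 6 were higher, with a median of 0.07. The F-test called 0 genes in each of these 3 lists.

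The average of the timing genes was not scaled by gene, so genes with a wide range weigh most in it. Over 18 arrays its r was 0.96 with Lin28a, 0.94 with Nr6a1 and 0.15 with Hmga2, at their brightest probe sets. Across the 18 embryos the average of the timing genes and that of the neuronal list had r = -0.87 (Spearman's rho -0.88), and r = -0.95 over 16 arrays. Leaving out the 2 embryos farthest from the median timing score, replicate 1 of -/- and replicate 2 of Neo2/Neo, gave -0.92. With the tailbud list r was 0.87 (rho 0.89), 0.90 over 16 arrays and 0.91 without the 2 farthest embryos. The let-7 target list had r = 0.64, 0.86 over 16 arrays and 0.50 without the 2 farthest. The late Hox list had r = 0.19 (rho 0.20), 0.29 over 16 arrays and 0.57 without the 2 farthest embryos, and the pluripotency list 0.05, 0.27 and 0.08. The let-7 processing list went from 0.02 over 18 arrays to -0.57 over 16, and the DNA methylation list from 0.16 to -0.68. The array median itself had r = -0.33 with the timing genes over 18 arrays and -0.75 over 16, and its part in these relations was not tested.

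Embryos of one genotype were compared in the same way. In 8 of 9 genotypes the embryo with the higher timing genes had the lower neuronal list, and in 7 of 9 it had the higher tailbud list. The timing average of replicate 1 minus that of replicate 2 was 0.005 in Neo2/Neo, 0.02 in Neo2/+ and -0.03 in Neo2/Neo2. The signs in these genotypes rest on such small gaps. The gap was largest in -/-, where the neuronal list read 0.26 in replicate 1 and -0.85 in replicate 2. Neo2/Neo2 was the exception for neurons, with -0.85 and -0.81 in embryos whose timing averages were 0.37 and 0.40.

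**Figure D4:**
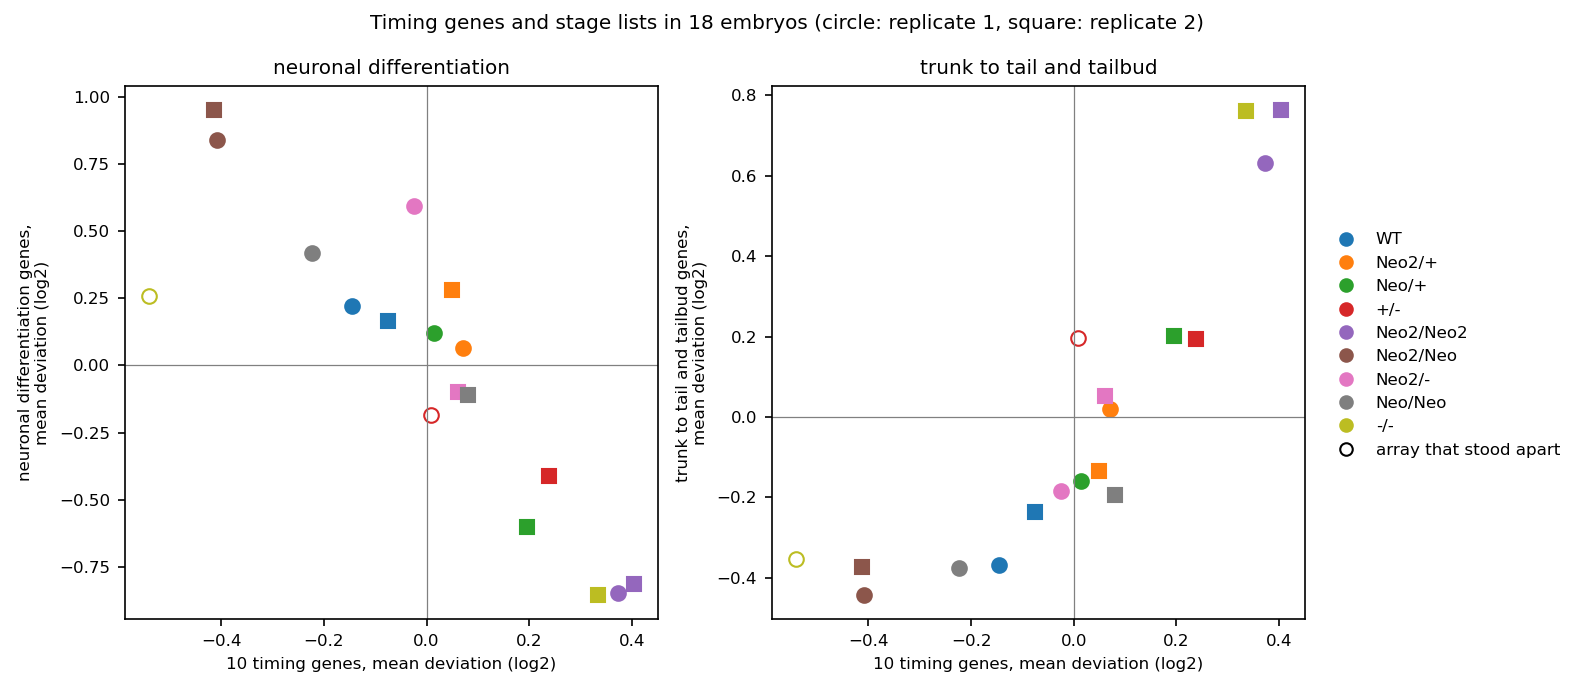
Mean deviation of the 10 timing genes (horizontal axis, log2) against the mean deviation of the neuronal differentiation list and of the trunk to tail and tailbud list (vertical axes, log2) in 18 embryos, coloured by genotype, circles for replicate 1 and squares for replicate 2. Neo2/Neo embryos lie at the low end of the timing genes with the highest neuronal scores (0.84 and 0.95), and Neo2/Neo2 embryos and replicate 2 of -/- at the high end with the lowest (-0.85 to -0.81).

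Markers of particular cell types moved with the timing genes in part. Of 7 measured primordial germ cell markers, cells that also express Lin28a and Sall4, 1 was called higher in Neo2/Neo2 than in Neo2/Neo, Prdm1 at 0.96 (adjusted p = 0.0264). The germ cell average was 0.14 and 0.23 in Neo2/Neo2 and -0.11 and -0.13 in Neo2/Neo, while the defining markers Ddx4, Dazl and Dppa3 stayed at or below 4.2, 3.74 and 4.53 in every embryo, below the array medians. Of 6 yolk sac endoderm markers 5 were lower and 1 was called, Afp at -3.39 (adjusted p = 0.0208), or -1.99 with the mean of its probe sets (adjusted p = 0.0158). The yolk sac average was -0.76 and -0.22 in Neo2/Neo2 and 0.72 and 0.61 in Neo2/Neo, and its r with the timing genes was -0.80 (-0.86 over 16 arrays). Of 4 measured primitive red cell genes 4 were lower and 0 called, with averages of -0.08 and -0.37 against 0.30 and 0.27. Of 6 neural progenitor markers 4 were lower and 1 called, Nes at -0.65 (adjusted p = 0.0408), with averages of -0.24 and -0.16 against 0.27 and 0.23. The 3 measured placenta and decidua markers, Prl8a2, Tpbpa and Psg21, were at or below 4.01 in all embryos, with averages of 0.14 and 0.08 against -0.02 and -0.12. The part of these tissues in the timing gene levels was not tested. With sex as a term the calls of Prdm1 (adjusted p = 0.0577) and Nes (0.0829) were lost, as were those of Tdgf1 (0.0998) and Nkx1-2 (0.0878), while their differences kept their sign.

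Among 1178 genes with a brightest signal of at least 7 on average and an SD over arrays of at least 0.3, those most like the timing gene average over the 18 embryos were Prtg (r = 0.98), Greb1l (0.97), Cldn6 (0.97), Hoxb1 (0.95), Itga3 (0.94) and Mogat2 (0.94). Prtg, protogenin, is a surface receptor of the early neural tube and mesoderm, and its mean was 10.57 in WT, 11.73 in Neo2/Neo2 and 9.56 in Neo2/Neo. Hoxb1, the Hox gene of the hindbrain and the posterior embryo, had means of 6.91, 8.30 and 6.37 in the same order. Those most opposite were the growth factor gene Igf1 (-0.97), the radial glia gene Fabp7 (-0.94) and the neuronal gene Stmn3 (-0.94). Igf1 had means of 8.27 in WT, 7.55 in Neo2/Neo2 and 9.17 in Neo2/Neo. Over 16 arrays Prtg, Hoxb1, Greb1l and Cldn6 stayed among the 6 highest, joined by Ifitm1 and Arg1, and Stmn3 stayed among the 3 lowest, joined by Epha3 and Skil.

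Because Mycn is among the 10 genes, the promoter windows of the others were read for CACGTG, the E-box that Myc family proteins bind. RefSeq windows of GRCm38.p6, from 250 bases before to 50 after a start site, were at hand for 8 of the 10 genes, all but Sall4 and Igf2bp1. The letters read the same on both strands. The 8 genes had 9 windows, with 2 for Nr6a1. The motif was found in 2 of the 9, those of Lin28b and Igf2bp3, and in 7.15% of all 32851 windows. The windows of Lin28a, Nr6a1, Trim71, Dnmt3b, Hmga2 and Mycn did not hold these letters. The Lin28b window lies inside the annotated gene, chr10:45376617-45486314, and not at its outer 5' end. The Igf2bp3 window held the letters at 2 places, the second after the start site and not shown. The stretches upstream of the start are shown with the motif in capitals, both from the minus strand, at chr10:45470237-45470258 for Lin28b and chr6:49214964-49214985 for Igf2bp3.
Lin28b promoter: gacagagtCACGTGtgctcagg
Igf2bp3 promoter: ggattcctCACGTGagacgttg

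At their brightest probe sets neither Lin28b nor Igf2bp3 was called in the contrasts above, and no binding was measured in these embryos.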

How the data were processed

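Total RNA of 18 whole embryos was hybridised to 1 array each, from 6 ug per array, per the labels' protocols. The authors deposited log2 signals, 1 per probe set and array. The submitters' processing notes name affy and RMA, with no version given in the labels. RMA corrects background, equalises arrays by quantiles, summarises probes and gives no detection call. The values were not filtered. Precision is limited by the number of arrays.

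The annotation gave 1 symbol to 34945 of 45037 probe sets (18193 genes), several to 932 and none to 9160, and 34741 were matched by gene ID to RefSeq genes of GRCm38.p6, which changed 0 symbols. All tests were two-sided and made with limma 3.58.1 (lmFit, eBayes; R 4.3.3) on all probe sets with Benjamini-Hochberg adjustment. A fit with 9 genotype means left 9 residual and 3.63 prior degrees of freedom, and other fits used the number of wild-type alleles or the Tbx1 signal. The fit was tested on simulated data with changes in Neo2/Neo2. Against Neo2/Neo it recovered 16.4% of changes of 0.5, 74.6% of changes of 1 and 90.9% of changes of 2 log2 units. The F-test recovered 4.48% of changes of 0.5. A gene without a call is therefore not shown to be unchanged. In the fit with 9 genotype means the p-values rest on the spread between embryos of a genotype, pooled over genotypes. In the fits on wild-type alleles or the Tbx1 signal that spread also holds differences between genotypes.

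The 10 genes and the lists were chosen with earlier results of these data known, so no pattern here is independent support for them. All 10 genes are named, with up to 4 genes per list by the smallest F-test p and, for likeness, the 6 highest and 3 lowest correlations. Genes named beyond that rule (Dis3l2, Pou5f1, Nanog, Zfp42, Ddx4, Dazl and Dppa3) were chosen after their values were seen. Lists were described by counts and medians, and list scores are mean deviations from each gene's mean over arrays. Replicate numbers did not pair the embryos: correlations of replicate 1 minus replicate 2 over 36 genotype pairs ran from -0.26 to 0.19. Alternatives were leaving out each embryo, leaving out both arrays that stood apart, a replicate block, median centring, quantile normalization, a filter at a mean of 6, an intensity trend, array weights, embryo sex as a term, and the mean of a gene's probe sets. Some genes of the lists were not analysed here, and counts are over those measured.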

Additional observations from a re-analysis of the deposited data

Results flagged for a closer look

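Single embryos lay outside the spread of the others with the same number of wild-type alleles in 11 of 62 such sets of values, by Dixon's gap test, which chance alone meets in about 1 of 20. Replicate 1 of +/- was lowest of the 6 embryos with 1 wild-type allele for Dnmt3b (8.41, others 9.29 to 9.53), for Hmga2 at 3 probe sets (12.18, 11.74 and 8.40, others 12.37 to 12.46, 11.89 to 11.95 and 11.00 to 11.70) and for the second Trim71 probe set (7.19, others 8.44 to 8.71). This array stood apart over all probe sets, and its part in these values was not tested further. Replicate 2 of +/- was highest of the same 6 for Sall4 (10.43, others 9.98 to 10.11) and for Trim71 (9.22, others 8.98 to 9.02). Replicate 1 of Neo/+ was lowest for Mycn (10.45, others 10.56 to 10.62). Replicate 1 of -/-, the other array that stood apart, was lowest of the 10 embryos with 0 wild-type alleles for Igf2bp1 at 3 probe sets (9.93, 10.35 and 9.15, others 10.86 to 11.32, 10.84 to 11.23 and 9.40 to 9.68).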

How the results depend on the processing

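Leaving out single embryos gave 0 to 5 of the 10 timing genes called in Neo2/Neo2 against Neo2/Neo (4 with all 18 arrays, 0 without any one of the 4 embryos of the contrast), 0 to 1 in Neo2/Neo2 against WT, 0 to 2 in -/- against WT and 0 to 6 in the F-test. It gave 0 to 10 neuronal genes, 0 to 6 tailbud genes, 0 to 2 let-7 targets and 0 to 2818 probe sets called in Neo2/Neo2 against Neo2/Neo. Without both arrays that stood apart these counts were 5 timing genes in Neo2/Neo2 against WT, 1 in -/- against WT, 4 in the F-test, 6 tailbud genes, 4 let-7 targets and 4992 probe sets. With array weights they were 4 timing genes in the F-test, 7 tailbud genes, 4 let-7 targets and 6791 probe sets. In the fits without single embryos or with array weights, the share of all genes called against WT and in the F-test was not counted. Nothing is read from the timing gene counts there. With embryo sex as a term the counts were 1 timing gene, 4 neuronal genes, 0 let-7 targets and 325 probe sets in Neo2/Neo2 against Neo2/Neo. The filter on dim probe sets left 1 tailbud gene called, and the mean over all probe sets of a gene gave 0 let-7 targets and 772 genes. The difference of Hmga2 turned from -0.04 to 0.025 with arrays centred on their medians and ran from -0.091 to 0.014 without single embryos. That of Igf2bp1 turned from -0.10 to 0.23 with the mean of its probe sets and ran from -0.25 to 0.058 without single embryos. With the replicate block 4 timing genes were called in Neo2/Neo2 against Neo2/Neo and 0 against WT, 10 neuronal genes and 1461 probe sets were called, and Tdgf1 lost its call (adjusted p = 0.0503). The numbers gave no pairing of embryos. The causes of these changes were not tested. In the comparison of 0 against 1 wild-type allele and on the Tbx1 signal, the count stayed at 0 of the 10 genes in each alternative run.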
